A study of Arabidopsis thaliana with 6 samples.

Results

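The wild-type (WT) silique transcriptome of Arabidopsis thaliana is described here from 3 RNA-seq libraries, which are all the WT libraries among the 6 of the study. A silique is the fruit of this plant, and each was taken 3 days after pollination, frozen, and extracted with Trizol. The other 3 libraries, of the mutant agc1-4, were not used. The labels give the genotype as WT and mark the columns of these libraries as Col, name no treatment, and do not say how many siliques or plants went into a library or whether the libraries came from separate plants, so an SD below is the spread of these libraries only and may be of technical origin.

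In background terms, the young silique joins a green fruit wall (the valves, joined at the replum and opening along the valve margins) to seeds that hold a maternal seed coat, an endosperm and an embryo. At this age the fruit wall is elongating and photosynthetic, the endosperm is still growing, and the seed coat begins to make condensed tannins. Seed storage proteins accumulate later, during seed filling.

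Levels are given as FPKM, the fragments assigned to a gene scaled to its length and to the size of the library, so that genes of different length can be compared. The share of a gene in the transcript pool is its percent of the summed FPKM of a library. Values for 3 libraries are listed in the order of WT replicates 1, 2 and 3, and means carry the SD over the 3. Total counts were 8460230, 11663034 and 8429300, and between 21825 and 22130 of 27779 rows had a count in a library. Where no count was found, counting error alone leaves room for 3 counts, or 0.257 to 0.356 CPM (counts scaled to library size). No pair of libraries was a duplicate: the chi-square of their counts per degree of freedom was 2.41 to 4.63, where counting noise alone gives values near 1.

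The WT silique expressed a broad set of genes, with a pool led by a few short, mostly secreted or chloroplast proteins. A mean FPKM of at least 1 was reached by 18368 rows (66.1%), at least 10 by 11211 (40.4%), at least 100 by 1060 (3.82%) and at least 1000 by 28. No count was found in any library for 4696 rows. The highest gene held 2.58% ± 0.0837 of the pool (SD, n = 3), the 10 highest 8.23% ± 0.231, the 100 highest 19.8% ± 0.240 and the 1000 highest 47.4% ± 0.587. To reach 50% of the summed mean FPKM took 1169 genes, and 90% took 8792. In single libraries 50% was reached by 1150, 1213 and 1138 genes. Weighing genes by counts in place of FPKM, which gives long transcripts more weight, lowered the share of the 10 highest to 5.36%.

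**Figure D1:**
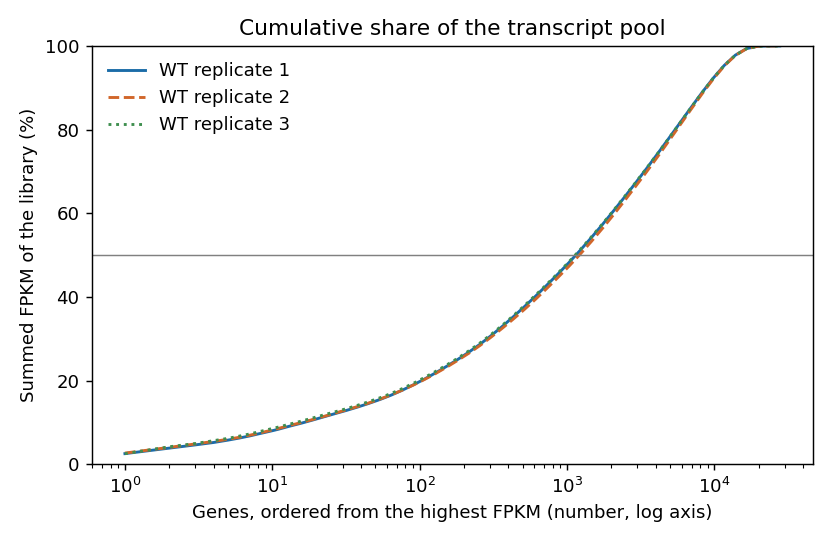
Cumulative share of the summed FPKM (%, y axis) against the number of genes ordered from the highest FPKM (log x axis), 1 line per WT library, with a horizontal line at 50%. The 3 lines nearly coincide, passing 50% at 1150, 1213 and 1138 genes.

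The highest transcript of the WT silique came from GILT (AT4G12960), annotated as a gamma-interferon-responsive lysosomal thiol reductase, a family known from mammals to reduce disulfide bonds of proteins in lysosomes. Its FPKM was 16599.7, 17223 and 16575 (mean 16799 ± 367). All 3 libraries thus lay close together, and each had GILT above every other gene. The family has 5 rows in the table. Its neighbours AT4G12870 and AT4G12890 also stood among the 100 highest genes, at 2736 ± 32.6 and 529 ± 14.5 FPKM, and AT4G12900 was at 62.8 ± 9.45. The fifth member, OSH1 on chromosome 5, had a mean FPKM of 0.113. Together the family held 3.09% ± 0.0931 of the pool, of which GILT alone made up 83.5%. None of the 5 had counts that were not whole, a feature of rows whose reads may have been split with a similar gene.

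The stretch from 250 bases before to 50 bases from the annotated start of GILT is shown because no other gene in these libraries came near its level. Capitals mark a G-box (CACGTG), which begins 57 bases before the start. The sequence is RefSeq's, in assembly TAIR10.1. The authors' own build is not given in the sources used here, and only the gene's locus ties this sequence to its FPKM.
GILT promoter, chr4:7582989-7583288, plus strand: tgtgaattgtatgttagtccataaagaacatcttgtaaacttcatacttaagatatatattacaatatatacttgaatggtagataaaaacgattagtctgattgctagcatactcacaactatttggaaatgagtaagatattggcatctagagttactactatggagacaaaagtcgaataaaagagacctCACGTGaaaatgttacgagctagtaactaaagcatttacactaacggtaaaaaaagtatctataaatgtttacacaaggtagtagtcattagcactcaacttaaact

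Lipid transfer proteins, small secreted cysteine-rich proteins that bind lipids and are found in cuticles and cell walls, took the next place. LTP6 was at 8615, 8755 and 10863 FPKM (mean 9411 ± 1259), clearly highest in replicate 3. LTP4 was at 3328, 3276 and 3219, and its neighbour LTP3 at 3168, 3161 and 3202. Their CVs of 1.67% and 0.687% contrast with 13.4% for LTP6. LTP1, listed as LP1, followed with 2280 ± 26.7 FPKM. The whole class of 130 rows held 3.26% ± 0.169 of the pool, and 2 genes held 50% of that. Only 43 of the 130 (33.1%) reached an FPKM of 1, against 66.1% of all rows, and 48 had no count. Because these transcripts are short, the class made up 1.67% of the counts.

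Genes for carbon fixation came after these. The small subunit of Rubisco, the enzyme that fixes CO2, is encoded by 4 nuclear genes, and 3 of them were among the 20 highest. RBCS1A was at 5033, 5275 and 5064 FPKM (mean 5124 ± 132), RBCS3B at 3755 ± 133 and RBCS2B at 2265 ± 110, while RBCS1B was at 680 ± 48.0. These 4 genes are of the same family, and each had counts that were not whole in some or all libraries, so their order is uncertain. RCA, the activase that keeps Rubisco working, was at 1314 ± 115 FPKM. The class of 32 rows held 2.54% ± 0.0484 of the pool, and 0.799% when rows with counts that were not whole were left out.

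In the family of invertase and pectin methylesterase inhibitors, named for secreted proteins that restrain sugar cleavage or pectin modification in the wall, AT4G15750 was at 3676, 3041 and 4525 FPKM (mean 3747 ± 745). AT1G56100 was at 3113, 2590 and 3605 (mean 3103 ± 508). Both were lowest in replicate 2 and highest in replicate 3, and their CVs of 19.9% and 16.4% were among the wider ones of the leading genes. AT5G46960 had the same order at 524 ± 68.2 FPKM. The class held 1.5% ± 0.207 of the pool (1.47%, 1.31% and 1.72%), and 0.836% of the counts. The family name also covers enzymes: 7 of the 89 rows are described in the table as pectinesterases, and they held 0.106% ± 0.00228, led by AT5G49180 (PME58), at 510 ± 19.4 FPKM and with a coding length of 1716 bases. The other 82 rows held 1.40% ± 0.207. A second class, of rows matched as pectinesterase without the family name, held 0.0733% ± 0.00153, with PMEPCRF at 103 ± 6.66 FPKM; the pollen pectinesterases VGD1 and VGDH1, given below, fell into neither.

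The rest of the 20 highest genes were of mixed kinds. AT5G51105, of the ECA1 gametogenesis family of small secreted proteins, was at 2368, 2795 and 2233 FPKM, highest in replicate 2. AT5G47350, an alpha/beta-hydrolase of no class used here, was at 2342, 2043 and 2732, highest in replicate 3. TT4, the chalcone synthase that opens the flavonoid pathway, was at 1741, 1754 and 1818. AT2G30810, a gibberellin-regulated (GASA) small protein, was at 1886, 1421 and 1846, and MT2B, a metallothionein that binds metal ions, at 1562, 1124 and 1631; both were low in replicate 2. SAMDC, which makes the aminopropyl donor for polyamines, PSBR of photosystem II, the thionin THI2.1 and the peroxidase PRXR1 had means of 1664 ± 48.6, 1616 ± 82.5, 1603 ± 76.8 and 1468 ± 61.8 FPKM. Of the 20 genes, 13 had a CV under 10%, 7 were lowest in replicate 2, 8 were highest in replicate 3 and 4 had counts that were not whole.

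**Figure D2:**
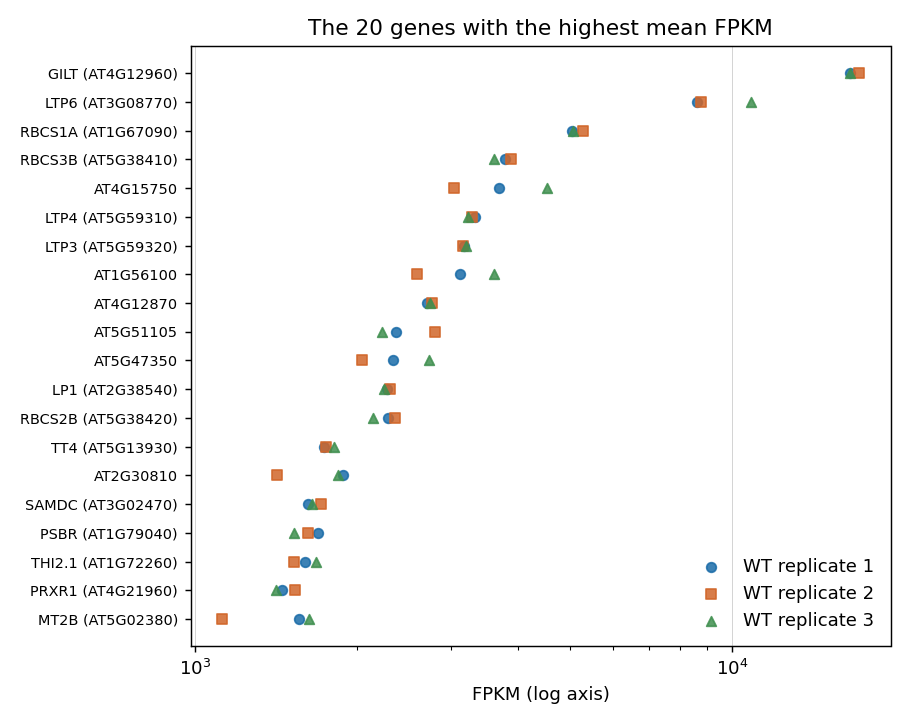
FPKM (log x axis) of the 20 genes with the highest mean FPKM, 1 symbol per WT library. GILT stands apart at 16575 to 17223, LTP6 follows at 8615 to 10863, and the remaining genes lie between 1124 (MT2B in replicate 2) and 5275 (RBCS1A in replicate 2).

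Classes built from gene descriptions and symbols gave the make-up of the pool by function. Together 41 classes with 4054 genes held 36.1% ± 0.611 of the pool, and 78 of the 100 highest genes fell into one. At least 1% of the pool was held by 8 classes: ribosomal protein families, photosystem and antenna proteins, lipid transfer proteins, the GILT family, carbon fixation, the invertase and pectin methylesterase inhibitor family, defensin-like proteins and thionins, and proline- and glycine-rich wall proteins. The largest share, 6.19% ± 0.248, belonged to the ribosomal protein families, followed by photosystem and antenna proteins with 3.86% ± 0.147.

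**Figure D3:**
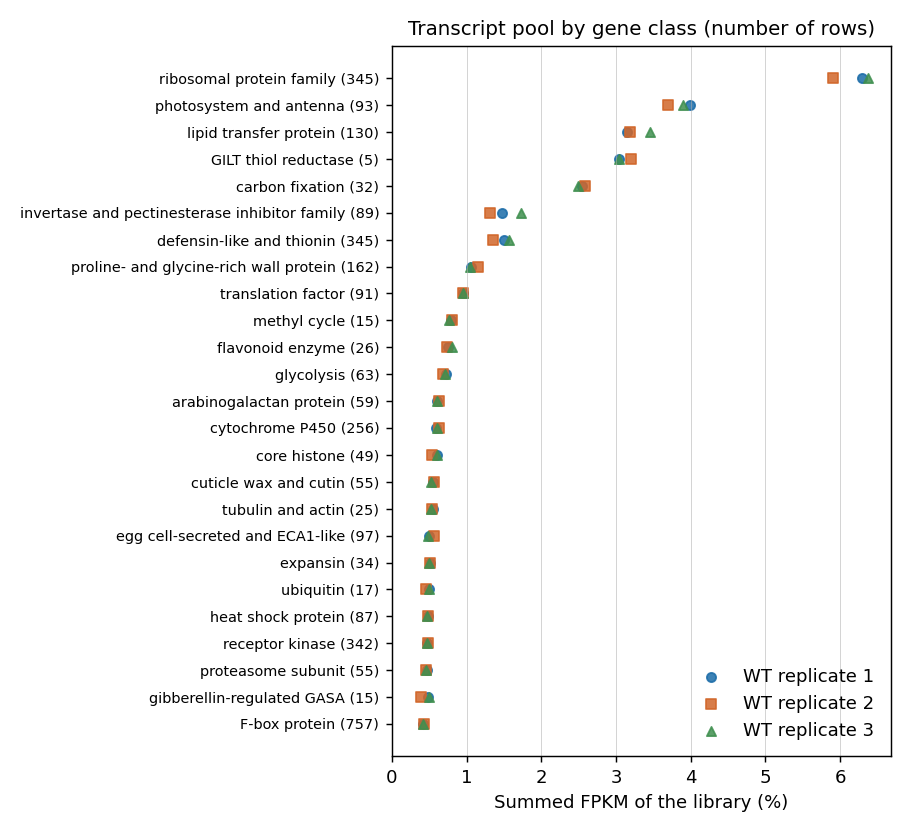
Percent of the summed FPKM (x axis) held by the 25 gene classes with the highest shares, 1 symbol per WT library, with the number of table rows of each class in brackets. Ribosomal protein families lie between 5.91% and 6.38%, photosystem and antenna proteins between 3.70% and 3.99%, and the classes below the top 8 are each under 1%.

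Genes of the ribosomal protein families, which for the most part encode the protein parts of the cytosolic ribosome, were expressed evenly and broadly. The class was matched by names: 220 rows with 40S or 60S in the description or product held 4.90% ± 0.197. The remaining 125 rows, which also include chloroplast and mitochondrial ribosomal proteins, 7 rows also matched as translation factors and immune receptors with symbols such as RPS4, held 1.29% ± 0.0507. Of all 345 rows, 312 (90.4%) reached an FPKM of 1, the median was 78.6 FPKM against 5.57 for all rows, and it took 62 genes to reach 50% of the class. Their highest gene, emb2386 of the large-subunit L19e family, was at 588, 553 and 558 FPKM (mean 567 ± 19.0), and was the only one among the 100 highest genes, while 149 were among the 1000 highest. AT4G27090, of the large-subunit L14 family, was at 533, 454 and 515 FPKM, lowest in replicate 2, and AT5G20290, of the small-subunit S8e family, at 496, 477 and 474. Replicate 2 had the lowest share of the class, at 5.91% against 6.29% and 6.38%. The class made up 3.96% of the counts. Translation factors held 0.952% ± 0.00443, or 0.821% ± 0.00114 without the 7 rows shared with the ribosomal class, led by the elongation factor gene AT5G60390 at 830 ± 7.46 FPKM.

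A pair of short motifs known from plant ribosomal protein promoters was common upstream of these genes. The telo-box, searched as AAACCCTA on both strands, stood between 250 bases before and 50 bases from the RefSeq start in 41.9% of the 332 genes of the class with a model, in 52.7% of the 150 at an FPKM of 100 or more, and in 6.60% of all 27419 promoters. Site II, searched as TGGGCC on both strands, stood in 56.6%, 71.3% and 15.3% of them. Promoters of neighbouring genes can overlap, and a match shows only that the letters are there. The promoters of the 3 highest genes of the class show both outcomes, with capitals marking either motif on either strand. The first, of emb2386, holds neither motif as searched, and the other 2 hold 1 telo-box and 2 site II matches each.
emb2386 promoter, chr1:609485-609784, minus strand: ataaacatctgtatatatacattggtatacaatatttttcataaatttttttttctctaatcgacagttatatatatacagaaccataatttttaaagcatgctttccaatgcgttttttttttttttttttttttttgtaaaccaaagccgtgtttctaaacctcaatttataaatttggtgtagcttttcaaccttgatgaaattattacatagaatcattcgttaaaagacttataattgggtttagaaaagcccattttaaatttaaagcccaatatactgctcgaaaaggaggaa
AT4G27090 promoter, chr4:13595203-13595502, minus strand: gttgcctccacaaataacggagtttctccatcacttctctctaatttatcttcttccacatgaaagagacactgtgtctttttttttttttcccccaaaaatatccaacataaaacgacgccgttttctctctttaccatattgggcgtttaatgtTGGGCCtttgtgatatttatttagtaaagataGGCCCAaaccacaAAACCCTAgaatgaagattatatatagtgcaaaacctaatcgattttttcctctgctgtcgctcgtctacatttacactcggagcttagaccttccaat
AT5G20290 promoter, chr5:6853057-6853356, minus strand: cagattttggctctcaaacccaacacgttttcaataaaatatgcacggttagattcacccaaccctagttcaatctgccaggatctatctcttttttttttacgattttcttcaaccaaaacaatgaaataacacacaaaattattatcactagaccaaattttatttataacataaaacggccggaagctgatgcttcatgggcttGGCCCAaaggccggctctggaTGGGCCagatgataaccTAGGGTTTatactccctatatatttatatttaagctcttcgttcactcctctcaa

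Photosystem and antenna genes were the class with the most members near the top of the pool. Of 93 rows, 24 were among the 100 highest genes and 77 (82.8%) reached an FPKM of 1. The class includes rows of the chloroplast genome, which make up most of its rows under an FPKM of 1. It was matched by names, so some rows, such as PSAT (AT4G35630), may not be photosystem proteins. After PSBR, a photosystem II subunit, came the light-harvesting genes of photosystem I LHCA4, at 1154, 1054 and 1130 FPKM, and LHCA1, at 1013, 986 and 949. PSBO1, of the oxygen-evolving complex that splits water, was at 965, 937 and 935. These 4 genes varied little, with CVs between 1.80% and 5.10%. Chlorophyll and carotenoid enzymes were much lower per gene, led by GUN5, the large subunit of magnesium chelatase, at 217 ± 8.18 FPKM and PSY, phytoene synthase, at 130 ± 3.90. As a class these pigment enzymes held 0.186% of the pool and, being long, 0.294% of the counts.

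Transcripts of the chloroplast genome itself were low in these libraries. Its 88 rows together held 0.0357%, 0.0180% and 0.0306% of the pool, lowest in replicate 2. The large subunit of Rubisco, ATCG00490, was at 43.2, 13.5 and 33.9 FPKM, far below its nuclear small subunits. ATCG00020, the D1 protein of photosystem II, was at 46.8, 14.8 and 45.0. Chloroplast transcripts mostly lack the poly(A) tails by which many protocols select RNA, and the labels do not say how RNA was selected. The mitochondrial genome's 120 rows held 0.00386%.

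The G-box CACGTG, a motif bound by light-responsive bZIP and bHLH factors, was found in the promoters of 40.9% of the 44 photosystem and antenna genes at an FPKM of 100 or more, in 33.3% of all 72 of that class with a promoter, and in 7.68% of all promoters. Among the 100 highest genes of the whole pool, 24 of which belong to this class, it stood in 22%, against 10.8% of the 899 genes next in rank, down to place 1000. The promoters of the 3 highest genes of the class are shown with the G-box in capitals. In PSBR it begins 9 bases after the annotated start, in LHCA4 88 bases before it, and LHCA1 has none in this window.
PSBR promoter, chr1:29735702-29736001, plus strand: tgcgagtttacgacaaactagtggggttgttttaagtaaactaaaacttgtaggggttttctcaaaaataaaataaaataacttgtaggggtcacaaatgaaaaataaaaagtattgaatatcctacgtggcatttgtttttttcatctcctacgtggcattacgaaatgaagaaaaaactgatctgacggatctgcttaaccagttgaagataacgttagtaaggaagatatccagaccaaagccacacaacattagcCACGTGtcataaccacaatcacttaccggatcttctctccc
LHCA4 promoter, chr3:17494984-17495283, minus strand: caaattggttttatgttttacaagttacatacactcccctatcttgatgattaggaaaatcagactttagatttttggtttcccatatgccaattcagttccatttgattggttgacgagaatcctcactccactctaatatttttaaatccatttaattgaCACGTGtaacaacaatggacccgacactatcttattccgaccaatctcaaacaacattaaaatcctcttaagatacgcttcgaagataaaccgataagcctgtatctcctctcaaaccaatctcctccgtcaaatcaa
LHCA1 promoter, chr3:20341127-20341426, minus strand: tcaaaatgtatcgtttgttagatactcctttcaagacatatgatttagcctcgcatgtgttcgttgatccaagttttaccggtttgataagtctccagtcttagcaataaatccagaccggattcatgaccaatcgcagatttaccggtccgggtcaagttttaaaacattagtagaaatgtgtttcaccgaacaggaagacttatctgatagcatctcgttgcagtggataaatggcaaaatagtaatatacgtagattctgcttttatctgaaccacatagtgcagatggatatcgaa

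Small secreted cysteine-rich proteins made up another visible part of the pool, mostly through few members. Defensin-like proteins and thionins, whose families include antimicrobial peptides and signals of reproduction, have 345 rows, of which 133 (38.6%) reached an FPKM of 1 and 154 had no count. They held 1.47% ± 0.107 of the pool but 0.523% of the counts, with 8 genes for 50% of the class. Besides THI2.1, SCRL10 was at 1199, 1222 and 1192 FPKM, a CV of 1.29%, and AT5G55132 at 637 ± 19.2. AT3G24510 was at 390, 289 and 353, lowest in replicate 2. Of 97 egg cell-secreted and ECA1-like rows only 13 (13.4%) reached an FPKM of 1, and AT5G51105 alone made up 73.9% of their 0.512% ± 0.0422. Its counts were not whole: the class share was 0.147% without such rows, and 0.168% of the counts. AT3G27425 and AT3G01324 of this family were at 256 ± 18.6 and 232 ± 12.3 FPKM. The GASA class held 0.458% ± 0.0550, with GASA1 at 906, 754 and 954 FPKM, and 0.189% of the counts.

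Genes of the growing cell wall were plentiful, with structural proteins above enzymes. Proline- and glycine-rich wall proteins held 1.09% ± 0.0537 of the pool (0.722% of the counts) in 162 rows, 76 of which reached an FPKM of 1. AT1G31250, a proline-rich protein, was at 943, 1237 and 890 FPKM and PRP2 at 662, 871 and 664, both highest in replicate 2. The extensin-like gene AT3G49270 was at 806 ± 32.8. Arabinogalactan proteins, heavily glycosylated proteins of the cell surface, held 0.611% ± 0.0150, led by AGP9 at 515 ± 17.8 FPKM and the fasciclin-like FLA10 at 420, 540 and 445. Expansins, which loosen walls during growth, held 0.512% ± 0.00751, mainly through the neighbours EXPA25, at 970 ± 54.5 FPKM, and EXPA23, at 844 ± 18.01. Both had counts that were not whole, and the class came to 0.199% without such rows. Cellulose synthases and synthase-like proteins, 41 rows for primary walls, secondary walls and other polysaccharides together, held 0.187% of the pool but 0.410% of the counts, since their transcripts are long. Their highest genes were CEV1 (CESA3), at 140.1 ± 7.66 FPKM, and CESA1, at 128 ± 4.07, both cellulose synthases of the primary wall. Xyloglucan endotransglucosylases, which cut and rejoin wall xyloglucan, held 0.148%, with EXGT-A3 at 302 ± 23.8.

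The outer surface and the interior chemistry of the fruit were also represented. Genes for cuticular wax and cutin held 0.549% ± 0.0201. CER1, needed for wax alkanes, was at 650, 762 and 559 FPKM, with each library apart from the next, while KCS6 and CER3, which act in wax synthesis, were at 280 ± 13.9 and 259 ± 6.54. Aquaporins, channels for water, held 0.403% ± 0.00783, led by PIP2A at 507 ± 21.0. Myrosinases, which release the defence products of glucosinolates, were TGG2 at 516, 480 and 398 FPKM and TGG1 at 275, 247 and 223, both lowest in replicate 3. The myrosinase-binding protein MBP2 was at 367 ± 14.6. Metallothioneins, at 0.333% ± 0.0600 of the pool (0.144% of the counts), have 8 rows. The 3 that reached an FPKM of 1 were MT2B, MT2A at 538 ± 89.5 FPKM and MT3 at 190.3 ± 47.6, each lowest in replicate 2.

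Enzymes of secondary metabolism and detoxification followed. Flavonoid enzymes held 0.765% ± 0.0347 of the pool, 35.5% of it from TT4, with the hydroxylase TT7 at 602, 610.2 and 616 FPKM and CHIL, a helper of chalcone synthase, at 544 ± 21.0. Cytochromes P450, to which TT7 also belongs, held 0.610% ± 0.0159 in 256 rows, led by CYP709B1 at 648, 705 and 697. C4H, the P450 of the phenylpropanoid entry, was at 273, 241 and 291, lowest in replicate 2. Glutathione S-transferases held 0.404% ± 0.0236, with DHAR1, which regenerates ascorbate, at 616 ± 11.7. GSTF12, which takes part in carrying flavonoids to the vacuole, was at 197, 181 and 240, in the same order of libraries as BAN, given below.

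Peroxidases, esterases and stress proteins each rested on few genes. Class III peroxidases held 0.403% ± 0.0142, with PRXR1 for 55.9% of it, PER64 at 643, 574 and 570 FPKM, and 23 of 78 rows (29.5%) at an FPKM of 1 or more. GDSL esterases and lipases held 0.400% ± 0.0147, led by AT5G45670 at 443 ± 20.4. Dehydrins, which protect cells during drying and cold, held 0.196% ± 0.0127, led by AT1G54410 at 712 ± 31.9 and ERD14 at 447 ± 36.9. Jasmonate genes held 0.134% ± 0.00460, led by the lipoxygenase LOX2 at 215 ± 3.22 and the vegetative storage protein VSP1 at 142 ± 5.90.

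Housekeeping groups had modest shares. Enzymes of the methyl cycle and of S-adenosylmethionine held 0.790% ± 0.0205, led by SAMDC, the methionine synthase ATMS1 at 672 ± 8.58 FPKM, and the S-adenosylmethionine synthetase MTO3 at 556 ± 16.7. Enzymes matched as glycolytic held 0.707% ± 0.0168. The highest was FBA2, a chloroplast aldolase that serves carbon fixation, at 661 ± 16.6 FPKM, followed by GAPC2, a cytosolic glyceraldehyde-3-phosphate dehydrogenase, at 438 ± 35.1. Core histones held 0.579% ± 0.0355 (0.329% of the counts), with a median CV per gene of 9.29% against 6.69% for all genes at an FPKM of 10 or more, led by the H3 family gene AT4G40040 at 416 ± 30.4. Tubulins and actins held 0.535% ± 0.00847, with TUA6 at 452 ± 9.59, and 0.307% without rows whose counts were not whole. Ubiquitin genes held 0.484% ± 0.0269 (0.231% without such rows), led by UBQ10 at 839 ± 29.3. Heat shock proteins held 0.483% of the pool and 0.768% of the counts. The 55 proteasome subunit rows, of which 54 reached an FPKM of 1, held 0.462% ± 0.00125, a narrow spread between libraries.

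Large regulatory and receptor families were mostly low. F-box proteins, which choose targets for degradation, have 757 rows, and 248 of them (32.8%) reached an FPKM of 1 for 0.424% ± 0.00728 of the pool. Receptor kinases (342 rows) held 0.473% of the pool and 0.908% of the counts, led by PEPR1, a receptor of wound peptides, at 123 ± 2.79 FPKM and followed by PERK10 and FEI1. FER, a receptor kinase of cell growth and pollen tube reception, was at 83.3 ± 0.559. TIR-NBS-LRR immune receptors held 0.0706% (0.0426% without rows whose counts were not whole, and 0.180% of the counts). WRKY factors held 0.0632%.

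Terms of the gene ontology deposited with the table gave a second view, in which a gene can fall under many terms. Genes of the thylakoid, 586 in number, held 11.4% ± 0.178 of the pool, the 778 genes of the cell wall 9.30% ± 0.0552 and the 261 genes of photosynthesis 7.45% ± 0.133. Lipid binding, with 274 genes led by LTP6, held 4.2% ± 0.155. Translation, with 841 genes, held 8.85% ± 0.225. The term ribosome, with 544 genes, held 9.81% ± 0.195. Rubisco small subunits were the highest genes of several terms, RBCS3B of the cell wall and RBCS1A of the ribosome, thylakoid and photosynthesis, so these shares are those of the deposited terms and not of wall or ribosomal proteins alone. The 770 genes of nuclease activity, 2.77% of the rows, held 0.884% ± 0.0182.

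Transcription factors were spread thinly through the pool. The 1657 genes with that ontology term, 5.96% of the rows, held 3.27% ± 0.117. An FPKM of 1 was reached by 1052 of them (63.5%), near the 66.1% of all rows. An FPKM of 100 was reached by 19, against 1060 (3.82%) of all 27779 rows. No gene with the term ranked above place 97. That place belonged to IAA9, a repressor of auxin responses whose tomato counterpart restrains fruit set, at 529, 543 and 494 FPKM. Other auxin repressors among the 10 highest were IAA8, at 372 ± 26.7, and IAA7, at 279 ± 3.92. From the MADS-box family came STK, SEP3 at 262 ± 9.66, AP3 and SHP1, and the list was completed by the chromatin protein HMGB2 at 280 ± 10.4 and the bZIP factors bZIP44, at 255 ± 13.4, and GBF6, at 248 ± 16.5. The other SEPALLATA genes, chosen after their values were seen, were SEP2 at 147 ± 8.07 and SEP1 at 117 ± 4.09 FPKM, while AG was at 35.4 ± 2.42 and AP1 at 3.37 ± 0.362.

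Genes without a named function, 3119 by their RefSeq product, held 3.82% ± 0.0323 of the pool. Of all 27779 rows 18368 (66.1%) reached an FPKM of 1, and of these genes 1171 did. The highest, AT1G09310, was at 1323, 1433 and 1071 FPKM. AT1G14455, AT1G56415, AT2G02498 and AT2G02515 followed at 613 ± 80.4, 495 ± 38.7, 472 ± 26.3 and 363 ± 23.6. Apart from AT1G09310, these had short coding regions of 276 to 327 bases.

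Markers of the valves, valve margins and replum, which define a silique, were detected in every library. In such bulk samples, fewer cells of a type and less RNA per cell cannot be told apart. FUL, which marks the valves, was at 59.9, 58.3 and 57.6 FPKM (mean 58.6 ± 1.20). Valve margin genes spanned SHP1 at 177, 199 and 174, ALC at 105 ± 3.38, SHP2 at 75.6 ± 5.14 and IND at 9.0 ± 0.440. At the replum, KNAT1 was at 30.0, 32.8 and 23.5 and RPL at 24.7 ± 0.366. Cellulose synthases of secondary walls, CESA4, CESA7 and CESA8, were at 79.8 ± 8.83, 57.6 ± 5.0 and 69.3 ± 4.15, each lowest in replicate 3.

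Among the seed marker lists, which have 2 to 11 genes, the seed coat list had the highest summed level, most of it from BAN. STK, an ovule and seed identity factor, was at 338, 348 and 348 FPKM (mean 345 ± 5.82), and TT16, which is needed in the innermost layer of the seed coat, at 14.9 ± 0.844. All 10 seed coat markers reached an FPKM of 1. BAN, the anthocyanidin reductase that makes tannin precursors, was at 458, 392 and 560, and TT12, which carries these into the vacuole, at 80.6, 71.0 and 87.8. AHA10, a proton pump of the same cells, was at 38.4, 34.6 and 53.1. The summed level of the list was 804, 738 and 934 FPKM (mean 825 ± 99.8). BAN made up 56.9% of it, and the other 9 genes summed to 345, 347 and 374 FPKM. STK and TT16 together summed to 352, 364 and 363 FPKM, so the rank of the seed coat list rests on BAN. Of the 10 seed coat genes, 7 were highest in replicate 3, TT1 by little (20.4, 20.2 and 20.7). Of all genes at an FPKM of 10 or more, 31.2% were highest in that library. The other 3, the transcription factors MYB5, TTG2 and GL2, were highest in replicate 2. MYB5 and TTG2 are known for roles in tannin synthesis as well as in the seed coat epidermis and trichomes. TT10, a laccase that browns the seed coat late, was lowest of the list at 5.25 ± 0.559.

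Endosperm markers were present at lower levels, with 10 of 11 at an FPKM of 1 or more and a sum of 174 to 179 FPKM. MPC was highest at 61.1 ± 4.11, then CKX2, which breaks down cytokinin, at 41.8 ± 2.83, FWA at 19.7 ± 0.432, PHE1 at 19.2 ± 1.73 and AGL36 at 13.8 ± 2.96. FWA, PHE1, MPC and AGL36 are known as imprinted genes of the endosperm. AGL62, which holds back the walling off of endosperm nuclei, was at 8.21 ± 1.06, and MEA and FIS2, Polycomb genes that restrain endosperm growth, were at 3.61 ± 0.238 and 3.23 ± 0.775. MINI3, a WRKY factor of seed size, was at 4.34 ± 0.985, whereas IKU2, the receptor kinase of the same pathway, had 3 counts over the 3 libraries. AGL40 was not analysed here, since no name in the table or the annotation matched it.

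Embryo markers were low, and the 10 seed storage markers had at most 2 counts each. Of 7 embryo genes, WOX9 at 2.32 ± 0.294 FPKM, on 111 counts over the libraries, and LEC1 at 2.69, 1.06 and 2.57, on 55 counts, reached an FPKM of 1. WOX8 was at 0.947 ± 0.163, on 31 counts, and ABI3, LEC2, FUS3 and WOX2 had 5 to 16 counts each over all libraries. Among 10 seed storage genes, OLEO1 had 2 counts in all, and CRA1, CRU2, CRU3, SESA1 to SESA5 and OLEO2 had 0. In the wider class of storage and oil body genes, 15 of 23 rows had no count, and the highest were AT5G56100, an oleosin-family gene, at 7.14 ± 0.657 FPKM and OLEO4 at 6.12 ± 1.07, on 61, 68 and 54 counts.

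Markers of other cell types differed widely in level. Pollen genes VGD1, VGDH1 and BCP1 were at 48.7, 49.1 and 65.0, at 26.4, 26.6 and 33.4, and at 29.5, 19.3 and 35.5 FPKM. All 3 were highest in replicate 3, and their summed level was 105, 95.0 and 134. VGD1 and VGDH1 are close copies whose reads can be exchanged, although the counts of both were whole. Of the petal and stamen pair, AP3 was at 212, 200.02 and 178 FPKM, while PI, its partner in flowers, was at 2.30, 3.34 and 1.92. In the stomatal lineage the late factor FAMA was at 9.50 ± 0.897, and the early factors SPCH and MUTE had 3 and 2 counts in all.

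**Figure D4:**
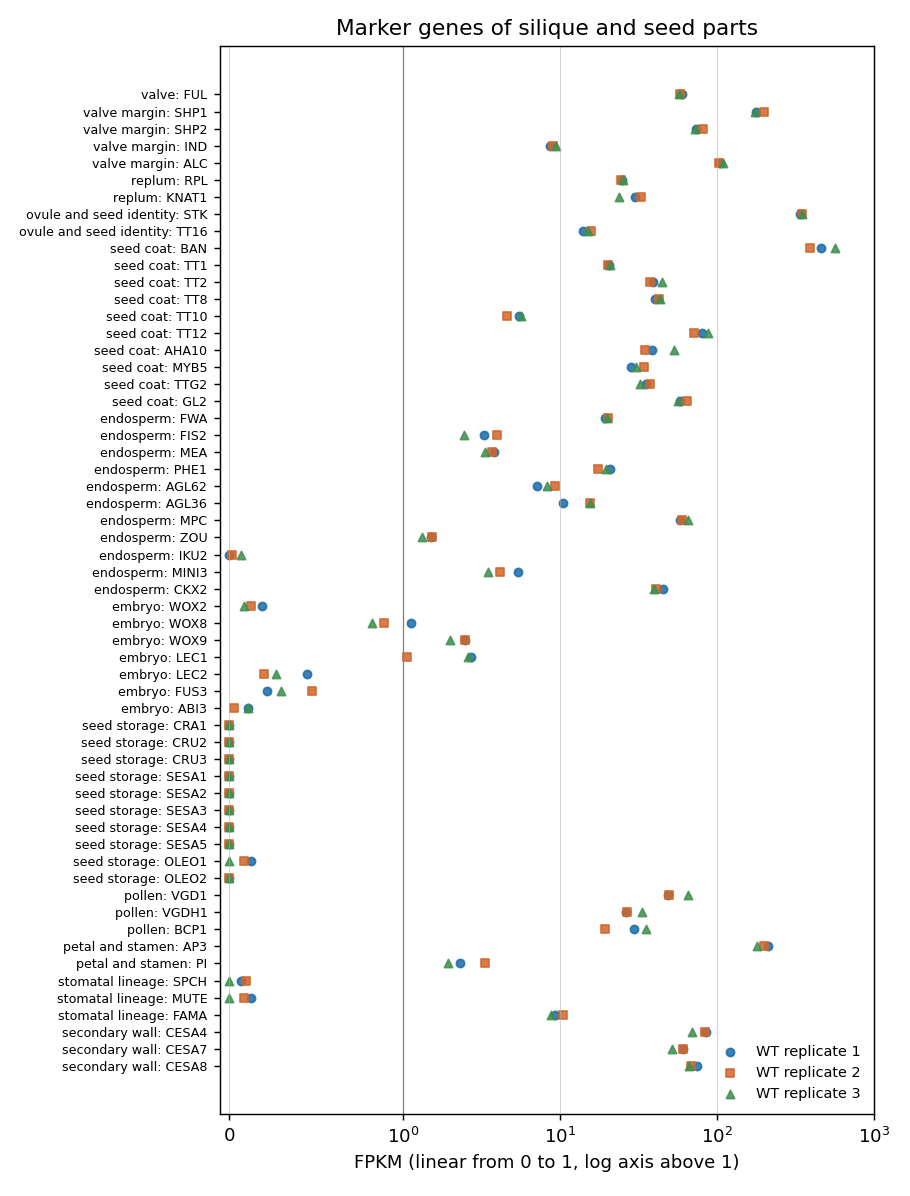
FPKM of the marker genes (x axis, linear from 0 to 1 and logarithmic above 1, with a vertical line at 1), 1 symbol per WT library, grouped by the part of the fruit or seed they mark. Seed coat genes lie between 4.61 and 560, embryo genes at or under 2.69, and 9 of 10 storage genes at 0 in every library.

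The libraries agreed closely for most genes. Between pairs of libraries, the Pearson correlation of log2(FPKM + 1) across 27779 rows, which are not independent replicates, was 0.994 to 0.995. Among the 11211 genes with a mean FPKM of at least 10, the median CV over the 3 libraries was 6.69%, beside 4.87% for the median error of counting alone, and 74.8% of these genes had a CV under 10%. The 200 highest genes had a median CV of 5.07%. The common biological CV, which edgeR estimated after removing counting error, was 7.13% over 18028 genes. Its estimates per gene are drawn towards a trend across genes. With genes ranked by counts and not FPKM, their median was 6.23% for the 500 highest and 10.7% for the 8028 lowest. In the levels between, it was 6.15% to 6.88%. Without replicate 2 the common value was 5.36%, and without replicate 1 it was 8.31%. Among the 200 highest genes, those with the smallest CV were LTP3 (0.687%), AT5G60390 (0.899%), the lipid-transfer family gene AT1G55260 (0.929%, at 379 ± 3.52 FPKM), MIOX1, which oxidises myo-inositol, (1.04%, at 673 ± 7.01) and SHM1, of photorespiration, (1.05%, at 496 ± 5.23).

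Few genes of that level differed by 2-fold or more between the highest and the lowest library. There were 26 such genes, or 0.232% of the 11211. Of the 23 with a RefSeq model, 18 had a transcript under 800 bases, against 6.92% of all genes of that level with a model. At the same FPKM a shorter transcript has fewer counts and more counting error, whose part here was not tested. The lowest library was replicate 2 for 13 of the 26, and the highest was replicate 3 for 15. Fewer libraries leave less room for a difference: without replicate 1, 2 or 3 there were 17, 12 and 9.

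Of the 10 widest of these differences, 7 fell on transcripts under 600 bases. AT1G55673, an uncharacterized gene with counts that were not whole, was at 52.7, 109 and 0 FPKM. The next was AT2G40205, of the ribosomal protein L41 family, at 3.67, 15.5 and 27.2, and AT3G11120 of the same family was at 9.34, 19.2 and 29.7. The L41 family has 5 rows, and the other 3 were named after their values were seen. AT3G56020 and AT3G08520 were at 12.2, 16.9 and 27.7 and at 1.44, 3.49 and 6.75. AT1G56045, the highest of the family, was at 70.6, 56.7 and 88.2 FPKM and varied by less than 2-fold. All 5 were thus highest in replicate 3, and 4 were lowest in replicate 1, while AT1G56045 was lowest in replicate 2. Their coding regions are each 78 bases long, and reads may be shared between them, so that the level of each is uncertain. Of the 5, only AT2G40205 had counts that were not whole. AT2G41231 was at 53.8, 46.3 and 13.6 FPKM and AT1G68723 at 11.2, 16.7 and 5.21, both with counts that were not whole. AT3G01325, which lies in the locus numbering beside ECA1-like genes, was at 53.6, 34.7 and 96.7. The defensin-like LCR35 was at 7.98, 6.15 and 17.0, on 16, 17 and 34 counts, and the peptide gene RALFL26, with a transcript of 841 bases, at 11.1, 5.85 and 15.2. The chloroplast genes ATCG00490 and ATCG00020, given above, have no model length here and completed the 10 widest.

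Replicate 2 differed from the other libraries along transcript length. In the 127 genes with transcripts under 500 bases and a mean FPKM of at least 10, its log2 FPKM over the mean of the other libraries had a median of -0.26. The median was -0.16 for 500 to 800 bases and -0.04 for 800 to 1200 bases, 0.03 for 1600 to 2000 bases and 0.06 for 3000 bases or more. Since each library is set against the mean of the other 2, such values of the 3 libraries are not independent. Between replicates 3 and 1, a ratio in which replicate 2 has no part, the median log2 was 0.05 under 500 bases and -0.02 at 3000 bases or more. The median CV fell with length from 16.8% to 5.19%. Counting error, which is larger for a short transcript at the same FPKM, is part of this CV and was not computed by length. Of the 10 classes with the shortest transcripts, by the median over members at an FPKM of 10 or more, 7 were lowest in replicate 2, among them metallothioneins (0.363%, 0.263% and 0.372% of the pool), GASA proteins (0.488%, 0.394% and 0.491%) and core histones (0.601%, 0.538% and 0.597%). The exceptions were the class of the shortest transcripts, egg cell-secreted and ECA1-like (0.493%, 0.561% and 0.483%), and arabinogalactan proteins, both highest in replicate 2, and lipid transfer proteins (3.14%, 3.19% and 3.46%), lowest in replicate 1. Of the 10 classes with the longest transcripts none was lowest and 8 were highest in replicate 2. What part length has in these values was not tested. Of the 41 classes, 13 were lowest and 18 were highest in replicate 2, which was also the deepest library.

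**Figure D5:**
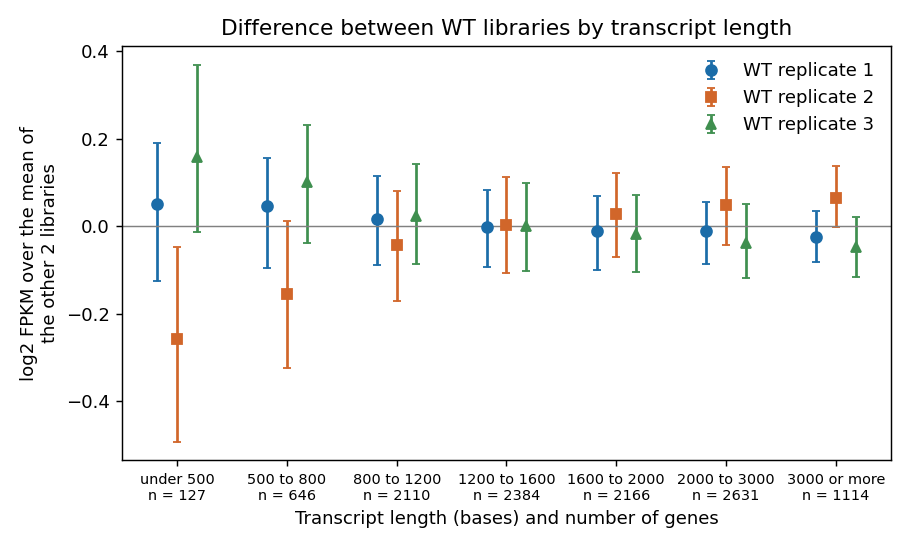
Median log2 ratio of FPKM in each WT library to the mean of the other 2 (y axis), by transcript length in bases (x axis, with the number of genes), for genes with a mean FPKM of at least 10; bars span the quartiles, and the 3 values of a bin are not independent. Replicate 2 runs from -0.26 for transcripts under 500 bases to 0.06 at 3000 bases or more.

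High level went with short genes. The median coding length of the 100 highest genes was 694.5 bases, against 1035 for all 27420 genes with a RefSeq model, and 42% against 25.5% were under 600 bases. The next 899 genes had a median of 732 bases and the 3991 after these one of 1035. Genes without any count were also short, with a median of 597. When genes were ranked by counts instead, the 100 highest had a median of 1039.5 bases, so the difference depends on the division by length. A TATA-box, searched as TATAAA on the sense strand from 50 to 20 bases before the start, stood in 15% of the 100 highest, 9.57% of the next 899 and 8.87% of all promoters. The telo-box and site II stood in 5% and 9% of the 100 highest genes, and in 13.0% and 28.7% of the next 899, where most of the 149 genes of the ribosomal protein families among the 1000 highest are found.

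Some of the 100 highest genes lay near another of them, in several cases a gene of the same family. Of the 100 highest, 20 had another of the 100 within 10 positions in the order of locus numbers, against 6.54% of the other 27320 genes. They included GILT with AT4G12870 and AT4G12890, the 3 RBCS genes of chromosome 5, LTP3 with LTP4, EXPA23 with EXPA25, CAB1 with CAB2, and SCRL10 with AT4G15750. Apart from SCRL10 with AT4G15750, each of these groups is of a single family. The rest of the 20 had no near neighbour of their own family among the 100. They were AT1G14455 with MIOX1, AT1G31250 with PSAF, PSAL near the GILT group, and UXS3 near LTP3 and LTP4. The share without family groups was not computed. In the RBCS, CAB and EXPA groups the neighbours are copies of each other, between which reads can be exchanged. By chromosome, chromosome 4, which carries GILT, held 17.5% of the pool with 15.0% of the rows, and chromosome 2 held 13.6% with 15.5%.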

How the data were processed

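RNA-seq of 3 WT silique libraries was analysed from 1 table of 27779 rows. The FPKM columns and the columns of estimated counts were deposited by the authors, per the file headers. Between 4.32% and 4.64% of rows per library had estimated counts that were not whole. The aligner, counting tool, build, strand and RNA selection are not given in the sources used here. Depth was 8429300 to 11663034 counts. For 71.6% of 14733 genes, the length implied by FPKM was within 1% of the RefSeq transcript.

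The members and lists were chosen with earlier results of these data known. The 41 classes are search patterns on descriptions and symbols, revised after the genes and levels they matched were seen, so they are descriptions only. The splits of the ribosomal, translation factor and inhibitor classes and the order of classes by transcript length were added after the class values were seen. Named genes are the 20 highest, up to 4 of each class, the markers, the 10 highest transcription factors, the 5 highest without a named function, the 10 widest spreads and the 5 smallest CVs among the 200 highest; others named for comparison (DELTA-VPE, BAM5, FT, F3H, RBCS1B, ATCG00480, SEP1, SEP2, AG, AP1, AT3G56020, AT3G08520, AT1G56045, OSH1 and neighbour pairs) were chosen after their values were seen. The 4 motifs were searched alike, and which promoters to print was decided after the shares were seen.

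No test between groups was made. The common dispersion was fitted with edgeR 4.0.16 in R 4.3.3 on estimated counts rounded to whole numbers (TMM, intercept only), and checked on simulated data. DESeq2 1.42.0 was an alternative. RefSeq models of TAIR10.1, representative transcripts, matched 27420 rows and gave lengths, promoters (250 bases before to 50 from the start) and locus order. Alternatives were counts in place of FPKM, medians, other filters and scalings, rows with non-whole counts left out and each library left out.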

Additional observations from a re-analysis of the deposited data

How the results depend on the processing

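With estimated counts in place of FPKM, the 10 and the 100 highest genes held 5.36% and 15.3% in place of 8.23% and 19.8%, the median coding length of the 100 highest was 1039.5 bases, and the G-box and TATAAA stood in 21% and 13% of their promoters. For the 500 highest genes these were 693 bases, 13.4% and 11.2%. The common biological CV of 7.13% was 7.25% without a filter on low counts, 6.91% at a mean FPKM of 10 or more, 2.86% and 10.96% as the medians of the gene-wise and the final DESeq2 dispersions, and 5.36% to 8.31% with a library left out. The 26 genes with a 2-fold difference became 4343 without a filter, 642 at a mean FPKM of 1 or more and 2 at 50 or more, and 9 to 17 with a library left out. Counts of genes at 50% of the pool (1145 to 1608), of genes at an FPKM of 1 or more (16906 to 19522) and of classes at 1% (7 or 8) stayed within 1.5 times under every alternative run. Of 246 class values under alternatives, 73 moved by more than 1 SD: 40 by counts and 33 without rows whose counts were not whole. Leaving out 1 of 3 libraries cannot move a mean by 1 SD, so the absence of such moves there shows nothing about stability. No paired analysis was possible because only 1 group was described and no result comes from a test.

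With 3 libraries each SD is itself imprecise, and genes with few counts are limited by counting. Copies that share reads are uncertain one by one, and so are overlapping genes, since the strand was not given.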

Other observations

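The flavonoid pathway had a gap in an otherwise high series, noticed after the values were seen. TT4 was at 1771 FPKM, the isomerase TT5 at 345, its relative CHIL at 544, the hydroxylase TT7 at 609, DFR at 452, LDOX at 455 and BAN at 470, in mean FPKM. F3H (AT3G51240), flavanone 3-hydroxylase, the step between the isomerase and DFR in the pathway, was at 7.35, 11.1 and 10.6 (mean 9.68 ± 2.03), below each of these in every library. FLS1, which branches off to flavonols, was at 138. The counts of F3H, 85, 179 and 125, were whole. How its reads were assigned cannot be seen in these values.

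Other high genes outside the classes, also picked after their values were seen, were DELTA-VPE, a protease known from cell death in the inner seed coat, at 1240.4, 1375 and 1282 FPKM, and BAM5, a beta-amylase, at 979, 1089 and 962. FT, known as the mobile signal of flowering, was at 364, 343 and 356 FPKM (mean 355 ± 10.5), rank 175 of all rows. ATCG00480, a chloroplast gene, was at 14.7, 7.85 and 10.6, lowest in replicate 2 like ATCG00490 and ATCG00020. GSTF6, a glutathione S-transferase, was at 518, 492 and 719, and thus highest in replicate 3 with LTP6 and AT4G15750.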
